A study of Mus musculus with 2 samples.

Results

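Stra8, Meiosin, Meioc and Ythdc2, the genes that start meiosis in germ cells, were followed in germ cells isolated from foetal mouse gonads. They were chosen by name, as the rows of the count table whose Ensembl identifier maps to those symbols, and are 4 of the 42422 genes in the table. Gene expression was measured in 40 libraries, 4 for each of 10 groups. Embryos came from 129svJT2 males carrying an Oct4(Pou5f1)-eGFP transgene crossed to Swiss females, and all were wild type apart from the reporter that every group carried. Gonads at E12.5 were either taken before culture (0 h) or cultured with the mesonephros attached for 24 or 72 h in the vehicle DMSO, in 500 nM of the FGF receptor inhibitor BGJ398 (FGFRi) or in 500 nM of the MEK1/2 inhibitor PD0325901 (MEKi). The XX groups were 0 h, 24 h DMSO and 72 h DMSO, and the XY groups were 0 h and, at each culture time, DMSO, FGFRi and MEKi. Gonads were pooled for each library and eGFP-positive cells were sorted, so the inhibitors acted on whole gonads and a lower value cannot be told apart from fewer expressing cells. The labels name each replicate but do not state which embryos it came from, so the p-values measure the spread between these libraries.

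Germ cells of the foetal ovary leave the mitotic cycle and enter meiotic prophase, whereas those of the foetal testis arrest in the mitotic cycle and enter meiosis only after birth. STRA8, which is induced by retinoic acid and BMP signals, and its partner MEIOSIN form a transcription factor complex that turns on meiotic genes. MEIOC and the RNA helicase YTHDC2 bind each other and act on RNA, clearing transcripts of the mitotic programme, including that of the cyclin Ccna2, so that cells stay in prophase.

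The deposited counts were aligned to GRCm39. In the GENCODE M39 annotation of that build Stra8 (ENSMUSG00000029848) lies on the plus strand of chromosome 6 from 34897098 to 34916279, and Meiosin (ENSMUSG00000085601) on the minus strand of chromosome 7 from 18832971 to 18852293. Meioc (ENSMUSG00000051455) lies on the plus strand of chromosome 11 from 102554542 to 102573063. Molecules were primed at the poly(A) tail, so the counts report the 3′ ends of exons and levels are compared between groups and not between genes.

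The promoters of the members with an entry in the RefSeq table, 3 of the 4, are shown because retinoid receptors and repressors that bind E-box and E2F elements are known to act on Stra8 and Meiosin. Each runs 5′ to 3′ on the strand of its gene, from 250 bases before the annotated start to 50 bases after it, in GRCm38.p6, which is not the build of the counts. Capitals mark matches on either strand to AGGTCA (a retinoid receptor half-site), CACGTG (an E-box), TTCCCGC (an E2F element, read on the opposite strand as GCGGGAA) and CNCCTCAG (the element bound by STRA8 and MEIOSIN). No 2 of the matches overlapped.
Stra8, chr6:34920698-34920997, plus strand: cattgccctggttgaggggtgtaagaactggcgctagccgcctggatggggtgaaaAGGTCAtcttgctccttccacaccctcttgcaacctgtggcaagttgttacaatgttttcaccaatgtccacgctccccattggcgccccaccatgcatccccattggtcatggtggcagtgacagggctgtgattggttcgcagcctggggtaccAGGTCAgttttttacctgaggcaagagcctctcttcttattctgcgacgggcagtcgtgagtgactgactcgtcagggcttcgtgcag
Meiosin (named Bhmg1 in the table), chr7:19118295-19118594, minus strand: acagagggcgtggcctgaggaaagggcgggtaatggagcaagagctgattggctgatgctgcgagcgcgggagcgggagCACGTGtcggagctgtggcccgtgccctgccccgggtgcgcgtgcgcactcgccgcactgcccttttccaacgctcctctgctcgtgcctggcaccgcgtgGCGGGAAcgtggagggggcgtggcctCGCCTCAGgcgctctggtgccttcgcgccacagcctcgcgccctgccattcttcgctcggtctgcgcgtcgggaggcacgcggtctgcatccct
Meioc, chr11:102665335-102665634, plus strand: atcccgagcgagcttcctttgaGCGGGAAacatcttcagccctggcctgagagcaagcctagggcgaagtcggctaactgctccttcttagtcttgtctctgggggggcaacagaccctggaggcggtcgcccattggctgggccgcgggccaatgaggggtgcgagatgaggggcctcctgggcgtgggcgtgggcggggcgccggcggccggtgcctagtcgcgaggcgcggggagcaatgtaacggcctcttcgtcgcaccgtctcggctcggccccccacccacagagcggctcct
The Stra8 promoter held 2 half-sites, at −194 and −38 from the start, and none of the other motifs. The Meiosin promoter held the E-box at −171, the E2F element at −70 and the STRA8 and MEIOSIN element at −44, and the Meioc promoter the E2F element at −228. Of the 32851 promoters in the table, 16.3% held AGGTCA, 7.15% CACGTG, 7.94% CNCCTCAG and 4.6% TTCCCGC. The Meiosin and Meioc promoters were rich in GC (70.3% and 68.3%, with 35 and 28 CpG), against a median of 52.7% and 7 CpG over all promoters, while Stra8 was near that median (55.7%, 10 CpG).

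Total counts ran from 1178953 to 5199153 per library, with a median of 2135128.5. The libraries were amplified in 2 pools of 20. Pool 1 held both 0 h groups, both 24 h DMSO groups and XY 24 h MEKi, and pool 2 held XY 24 h FGFRi and all 72 h groups, so pool and culture time, or pool and FGFRi at 24 h, cannot be told apart. A sample index that appeared in both pools tied 16 pairs of libraries. Each XY 24 h DMSO library shared its index with an XY 72 h MEKi library, each XX 0 h library with an XX 72 h library, each XY 0 h library with an XY 72 h library and each XX 24 h library with an XY 72 h FGFRi library. Counts of 4 Y-linked genes summed to 13 to 39 in the XX 24 h libraries, whose partners were XY, and to 3 to 8 in XX 0 h and 5 to 9 in XX 72 h libraries. All 10 germ cell markers were detected in every group, at 0.0822 to 0.367% of the counts per library, and 17 gonadal somatic markers together took 0.00838 to 0.0162% (group means). Genes were tested with limma (voomWithQualityWeights and treat, against a fold change of 1.5) on 15252 genes, and those with a Benjamini-Hochberg false discovery rate (FDR) under 0.05 were called DEGs. All 4 members passed the filter on low counts. Stra8 and Ythdc2 were above its cut-off of 4.68 CPM (counts scaled to a common library size) in all 40 libraries and Meioc in 37, whereas Meiosin was above it in 12 libraries and in all 4 libraries only of XX 24 h, XX 72 h and XY 72 h MEKi.

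Ythdc2 (ENSMUSG00000034653) lies on the plus strand of chromosome 18 from 44960813 to 45022791 in the same annotation. The levels of the members varied over very different ranges. From the lowest to the highest group mean, Stra8 spanned 111-fold, Meioc 64.3-fold, Meiosin 55.4-fold and Ythdc2 5.15-fold. Stra8 was highest in XX 24 h, XY 72 h MEKi, XX 72 h and XY 24 h MEKi, and each of these overlapped its neighbour in that order. A gap separated them from XY 72 h FGFRi, XY 24 h FGFRi, XY 24 h DMSO, XY 72 h DMSO and XX 0 h, which overlapped one another in turn, and XY 0 h lay lowest with no overlap. Meiosin was highest in XX 72 h, XX 24 h and XY 72 h MEKi, which overlapped in turn, and the other 7 groups formed 1 overlapping run below them. Meioc fell into separate steps, in the order XX 72 h, XX 24 h, XY 72 h MEKi and XX 0 h, none of which overlapped the next. The other 6 groups, led by XY 72 h FGFRi, overlapped in turn. These orders are of counts not corrected for shared indices. With the lowest-ratio correction, described with the XY 24 h values, Meioc in XX 0 h (21.05 to 28.12 CPM) overlapped XY 72 h FGFRi (up to 25.17 CPM). Stra8 in XY 24 h DMSO was then at 20.75 to 77.23 CPM. Ythdc2 was highest in XX 72 h and XX 24 h, which overlapped, and the other 8 groups, all lower, overlapped in turn.

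**Figure D1:**
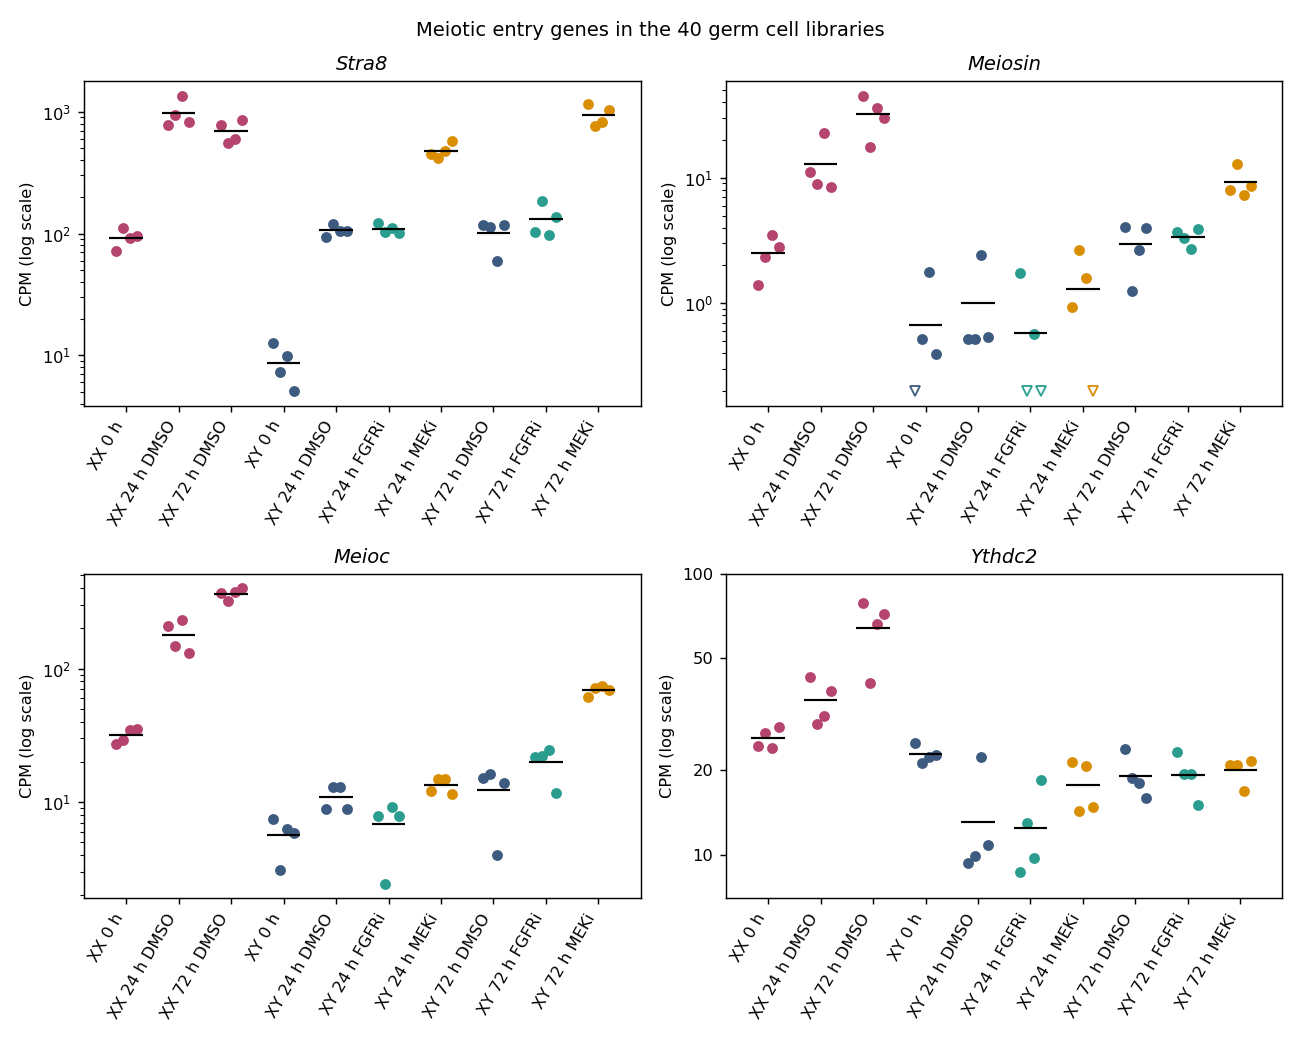
CPM (log scale) of each member in each of the 10 groups, with 1 point per library, a bar at the mean of 4 and an open triangle for a library at 0. Stra8 in XY 72 h MEKi (mean 948.5 CPM) lies beside XX 24 h (972.3), while Meioc and Ythdc2 are highest in XX 72 h (364.7 and 64.25).

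Before culture, XY germ cells already had less Stra8 and Meioc than XX germ cells. Stra8 was at 72.0, 111, 92.3 and 95.3 CPM in the XX 0 h libraries and at 12.7, 7.26, 9.80 and 5.10 CPM in the XY 0 h libraries. Every XX library lay above every XY library, and Stra8 was 12.1-fold lower in XY (log2 −3.59, SE 0.375, limma FDR 1.84e-08). Meioc was at 27.3, 29.4, 34.9 and 35.4 CPM in XX and at 7.46, 3.11, 6.24 and 5.88 CPM in XY, again with no overlap, and was 6.77-fold lower in XY (log2 −2.76, SE 0.34, FDR 4.448e-06). Meiosin, the partner of STRA8, gave 2 to 10 counts per library in XX and 0 to 2 in XY. These ranges overlapped, and its log2 difference of −2.13 (SE 0.68) did not pass the test (FDR 0.252). Ythdc2 was at 26.0 ± 2.09 CPM (SD, n = 4) in XX and 22.8 ± 1.58 CPM in XY, with overlapping libraries and a log2 difference between −0.59 and 0.14 (95% interval, FDR 1). Thus 2 of the 4 members were called, where 3% of all genes tested were. With no filter on low counts the Stra8 difference was as large (log2 −3.61) but was not called (FDR 0.157), and with a planned correction for shared indices, described with the XY 24 h values, the Meioc call was lost (FDR 0.0576). Blood markers, a list of 10 genes, took 0.018% of the counts in XY 0 h and 0.00402% in XX 0 h (exact permutation p = 0.02857, the smallest possible, adjusted p = 0.149 over 26 comparisons), and their part in these differences was not tested.

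In XX germ cells cultured for 24 h in DMSO, Stra8, Meiosin and Meioc rose. Stra8 reached 775, 938, 1353 and 823 CPM, every library above every 0 h library, and was 9.62-fold higher than at 0 h (log2 3.27, SE 0.166, FDR 1.581e-18). Meioc reached 207, 147, 232 and 131 CPM, also without overlap, and was 5-fold higher (log2 2.32, SE 0.164, FDR 1.797e-11). Meiosin rose from 2.50 ± 0.878 to 12.8 ± 6.75 CPM, with 19 to 46 counts per library (log2 1.92, SE 0.424, FDR 0.0432). That call was near the threshold. Leaving out XX 0 h replicate 2, 3, 4 or 5 or XX 24 h replicate 4 or 6 kept the log2 difference at 1.75 to 2.09 and ended the call, at FDRs of 0.0812 to 0.141, as did testing without a filter on low counts (log2 1.82, FDR 0.229). Ythdc2 was at 42.9, 29.3, 31.2 and 38.3 CPM, above all 0 h libraries (log2 0.44, SE 0.174), and did not pass the test (FDR 1). In this comparison 3 members and 3.23% of all genes were called. The XX 0 h libraries shared their indices with XX 72 h libraries, where these genes were high. With the planned index correction the rises were larger, at log2 3.92 for Stra8, 3.27 for Meiosin and 3.51 for Meioc, and all 3 were still called. Markers of gonadal somatic cells took 0.0124% of the counts at 24 h and 0.0152% at 0 h (exact permutation p = 0.02857, adjusted p = 0.149), and their part was not tested.

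Between 24 and 72 h in XX germ cells, Meiosin and Meioc rose further and Stra8 did not. Meioc was at 367, 323, 371 and 398 CPM after 72 h, above every 24 h library (log2 1.16, SE 0.129, FDR 2.038e-04). Meiosin was at 44.9, 17.4, 35.6 and 30.0 CPM, with replicate 7 below the highest 24 h library (log2 1.602, SE 0.272, FDR 1.794e-03), and DESeq2 did not call it (adjusted p 0.0515). Stra8 was at 781, 553, 598 and 851 CPM and overlapped the 24 h libraries (log2 −0.38, 95% interval −0.68 to −0.09, FDR 1). Ythdc2 was at 78.5, 40.8, 66.0 and 71.7 CPM, of which replicate 7 lay below the highest 24 h library. Its log2 difference of 0.89 (SE 0.165) did not pass the test (FDR 0.130), and without XX 72 h replicate 7 it was 1.00 and passed (FDR 0.0289). The calls of Meiosin and Meioc stand against 22.2% of all genes. With a term for the replicate number in the fit both were lost (FDR 0.282 for Meiosin and 0.712 for Meioc). From 0 to 72 h all 4 members were called higher in XX germ cells, by 7.37-fold for Stra8, 11.5-fold for Meiosin, 11.2-fold for Meioc and 2.50-fold for Ythdc2, against 37.2% of all genes. With the planned index correction the rises of Meiosin (log2 4.85) and Meioc (4.59) were larger and still called. From 24 to 72 h, 4 of the 12 gonadal somatic markers tested were called higher and 1 lower (41.7%, with a median log2 of 1.41), while the list took 0.0124% of the counts at 24 h and 0.0123% at 72 h. Of the 10 germ cell markers 8 were called lower and 1 higher (median log2 −2.81), and their share went from 0.168 to 0.0847%. The part of either list was not tested. Both comparisons also cross the pools.

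XY germ cells in DMSO gained Stra8 as well, from a lower start. Stra8 was at 94.4, 120, 106 and 106 CPM after 24 h, above all XY 0 h libraries and 13.4-fold higher (log2 3.74, SE 0.378, FDR 1.691e-08), and this was the 1 member called where 2.94% of all genes were. With no filter on low counts the difference was 3.68 and was not called (FDR 0.168). These libraries shared their indices with XY 72 h MEKi libraries, where Stra8 was high, and whether counts moved between them was not tested. Stra8 counts in the XY 24 h DMSO libraries (182, 230, 308 and 391) were 7.16 to 9.47% of those of their partners. The lowest such ratio of any gene with 200 or more counts in the partner was 2.31 to 6.14%. Among the 12 pairings of the same groups with different indices that lowest ratio was 0.422 to 11.8%. Taking the lowest ratio out of each library, an alternative added after the data were seen, left Stra8 at 54.7 ± 26.3 CPM. The rise over 0 h was then 3.23 on the log2 scale (FDR 4.05e-04). In the XX 24 h libraries the lowest ratio was 1.34 to 2.53%. Y-linked genes there gave 18, 13, 39 and 18 counts, against 332, 341, 875 and 549 in the XY partners, a share above the lowest ratio in each library. How much of a partner's counts the lowest ratio leaves in was not tested. The planned correction, which took out 15.2 to 25.7% of the partner, more than the whole Stra8 ratio, set Stra8 to 0 in all 4 XY 24 h DMSO libraries by construction and turned the difference from 0 h to −0.83. Meioc went from 5.67 ± 1.84 to 10.96 ± 2.41 CPM without overlap and did not pass the test (log2 1.06, SE 0.393, FDR 0.982). Ythdc2 was at 9.33, 9.90, 22.4 and 10.8 CPM, of which replicate 4 lay within the 0 h range (log2 −0.90, SE 0.232, FDR 0.863). Meiosin gave 5 counts over the XY 0 h group and 11 over the XY 24 h DMSO group.

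After 72 h in DMSO, Stra8 was at 59.3 to 117 CPM in XY germ cells and no member was called between 24 and 72 h by limma, edgeR or DESeq2, with 0 members at an unadjusted p under 0.05, while 27.3% of all genes were called. With the lowest ratio taken out of the 24 h libraries, Meiosin passed the test (log2 2.64, FDR 0.0265) and the Stra8 difference went from −0.07 to 0.86 without passing it (FDR 0.366). Against 0 h, Stra8 (log2 3.67, SE 0.378, FDR 7.121e-10) and Meiosin (log2 2.19, SE 0.697, FDR 0.0370) were called higher, against 35.5% of all genes. Meiosin rested on 3 to 9 counts per library against 0 to 2, its ranges overlapped, and its call was lost without XY 0 h replicate 2, 3 or 6 or XY 72 h DMSO replicate 2 or 6 (FDRs 0.0533 to 0.107). Meioc was at 15.2, 16.3, 3.99 and 13.9 CPM in the 72 h libraries and was not called by limma (log2 1.29, SE 0.4, FDR 0.108), while edgeR (FDR 0.0116) and DESeq2 (FDR 0.0285) called it. Replicate 5 was the low library, and without it Meioc passed (log2 1.69, FDR 0.00677).

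All 4 members separated XX from XY germ cells in culture. After 24 h in DMSO, Stra8 was 8.69-fold lower in XY (log2 −3.12, SE 0.173, FDR 4.377e-17), Meiosin 11.8-fold lower (log2 −3.56, SE 0.605, FDR 1.53e-04), Meioc 16.2-fold lower (log2 −4.02, SE 0.256, FDR 8.919e-16) and Ythdc2 2.95-fold lower (log2 −1.56, SE 0.225, FDR 8.065e-04). All 4 were called, against 9.99% of all genes, and no XY library overlapped the XX libraries for any of them. How many of all genes showed no overlap was not counted. With the lowest ratio taken out, the differences at 24 h were larger for Stra8 (log2 −4.07), Meiosin (−4.54) and Meioc (−4.56). After 72 h, Meioc was at 3.22% of its XX level, Meiosin at 9.04%, Stra8 at 14.3% and Ythdc2 at 29.7%. All 4 were called lower in XY at that time, against 41% of all genes (31.1-, 11.1-, 7- and 3.37-fold, FDRs 8.149e-21, 3.745e-08, 2.695e-16 and 5.655e-07). Their XY and XX libraries did not overlap. Blood markers took 0.00893% of the counts in XY and 0.00372% in XX at 24 h (exact permutation p = 0.0857) and 0.00584% and 0.00238% at 72 h (exact permutation p = 0.02857, adjusted p = 0.149), and their part was not tested. In the counts as deposited, the change of the sex difference with time did not pass a test for any member, and its direction differed between members. From 0 to 24 h the log2 difference between XY and XX moved by 0.48 for Stra8, towards XX, and by −1.43 for Meiosin, −1.26 for Meioc and −1.34 for Ythdc2, away from it. From 24 to 72 h it moved by 0.31, 0.09, −0.94 and −0.19 in the same order. Of the 4 members 0 were called by limma, edgeR and DESeq2 for the difference at 24 h less that at 0 h (0.452% of all genes, 1 member at an unadjusted p under 0.05) or at 72 h less that at 24 h (26.1% of all genes, 0 members). These values depended on the index handling. With the planned correction the first step turned to −4.76 for Stra8 and was called for Meioc (−7.45) and Ythdc2 (−2.05), while the second was called for Stra8 (9.04) and, now towards XX, for Meioc (4.45), and turned to 0.41 for Ythdc2. With the lowest ratio taken out, none was called and the first step was −0.26 for Stra8.

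MEKi raised Stra8 in XY germ cells within 24 h, and Stra8 was the 1 member called. It was at 447, 421, 473 and 576 CPM in MEKi and at 94.4, 120, 106 and 106 CPM in DMSO. The lowest MEKi library was above the highest DMSO library, and Stra8 was 4.56-fold higher (95% interval 3.58 to 5.81, log2 2.19, SE 0.174, FDR 2.069e-09), where 0.164% of all genes were called. Meiosin gave 2, 5, 3 and 0 counts in MEKi and 1, 1, 7 and 2 in DMSO, 10 against 11 in all. Meioc was at 12.1, 14.9, 14.8 and 11.5 CPM in MEKi against 8.81, 13.0, 13.1 and 8.93 CPM in DMSO, and Ythdc2 at 21.4, 14.3, 20.6 and 14.8 against 9.33, 9.90, 22.4 and 10.8 CPM. Both overlapped, and the log2 differences of these 3 members had 95% intervals of −1.34 to 1.79, −0.28 to 1.04 and 0.07 to 1.08 (FDR 1 for each).

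Several measured values stood beside the Stra8 rise at 24 h. With no filter on low counts it did not pass (log2 2.12, FDR 0.0624). The DMSO libraries shared their index with XY 72 h MEKi and the MEKi libraries shared theirs with no library. With the lowest ratio taken out the Stra8 difference was larger (log2 3.12, FDR 3.16e-11), while those of Meiosin (1.17) and Meioc (0.89) were not called (FDR 1 for both). The planned correction removes all Stra8 and Meioc counts from the DMSO libraries by construction. With it the Stra8 difference was 10.88 and Meioc was called as well (5.71, FDR 2.78e-04). Against XY 0 h, Stra8 was 60.9-fold higher after 24 h of MEKi (log2 5.93, SE 0.367, FDR 1.64e-16), the 1 member called there among 3.55% of all genes. Blood markers took 0.0196 to 0.0512% of the counts in the MEKi libraries and 0.00404 to 0.0136% in the DMSO libraries. Most of these counts came from globins. This difference had the smallest p that 4 against 4 libraries allow (exact permutation, two-sided, p = 0.02857, adjusted p = 0.149 over 26 comparisons), and its part in the result was not tested. By gene, 3 of the 7 blood markers tested were called higher by limma (42.9%, against 0.164% of all genes), 1 by edgeR and 0 by DESeq2, with 6 at an unadjusted p under 0.05. The markers of gonadal somatic cells took 0.0139% in MEKi and 0.0123% in DMSO (exact permutation p = 0.514).

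After 72 h of MEKi, Stra8 and Meioc were higher than in XY DMSO germ cells. Stra8 was at 1163, 770, 818 and 1043 CPM in MEKi and at 117, 114, 59.3 and 117 CPM in DMSO, a 9.03-fold difference with no overlap (95% interval 7.19 to 11.4, log2 3.18, SE 0.164, FDR 2.343e-18). Meioc was at 61.5, 71.4, 73.5 and 68.6 CPM in MEKi against 15.2, 16.3, 3.99 and 13.9 CPM in DMSO. It was 5.91-fold higher (95% interval 4.09 to 8.55, log2 2.56, SE 0.265, FDR 8.311e-08), and the groups did not overlap. Meiosin gave 16, 72, 37 and 22 counts in MEKi (7.94, 12.9, 7.33 and 8.62 CPM) against 9, 3, 4 and 6 in DMSO (4.03, 1.25, 2.66 and 3.98 CPM). Although every MEKi library lay above every DMSO library, the log2 difference of 1.61 (SE 0.429, 95% interval 0.75 to 2.47) did not pass the test against a fold of 1.5 (FDR 0.0937), and edgeR called it (FDR 0.0216). Ythdc2, at 20.1 ± 2.16 CPM in MEKi and 19.1 ± 3.31 CPM in DMSO, had an interval of −0.43 to 0.36 around a log2 difference of −0.04. The 2 calls stand against 9.12% of all genes. The shares of somatic markers (0.0121% and 0.0102%, exact permutation p = 0.514) and of blood markers (0.00297% and 0.00584%, exact permutation p = 0.0571) did not pass a test at that time.

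**Figure D2:**
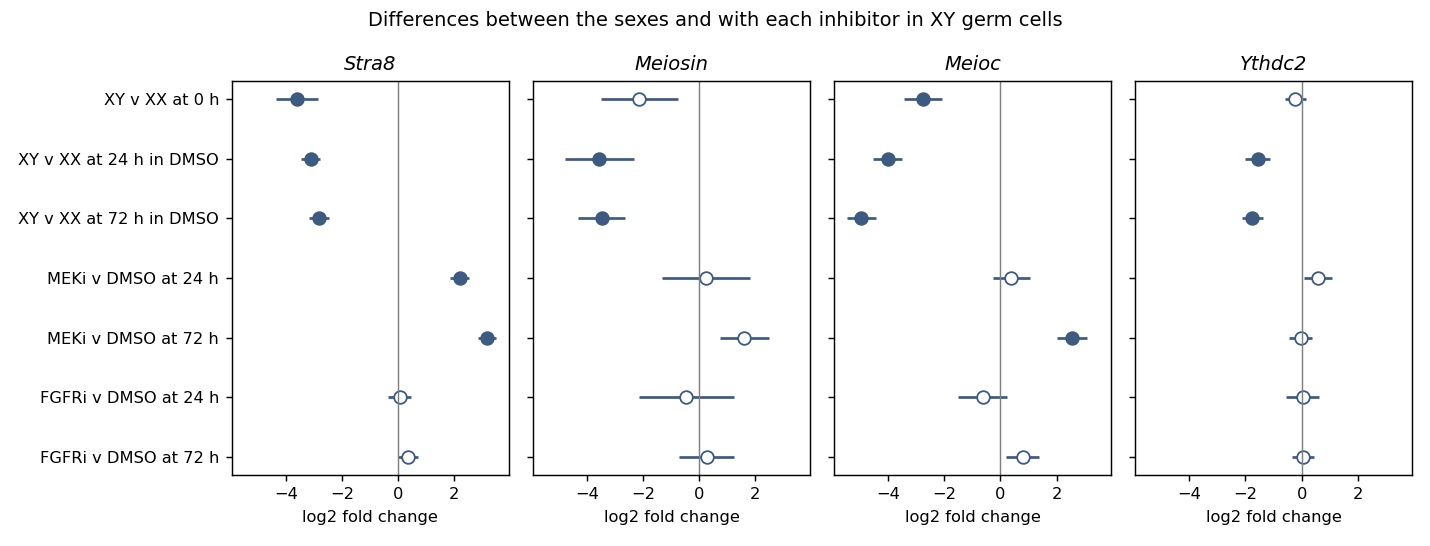
Log2 difference of each member with its 95% interval for XY against XX germ cells at 0, 24 and 72 h and for MEKi and FGFRi against DMSO in XY germ cells at 24 and 72 h, from the limma fit. Filled points passed the test against a fold of 1.5 and open points did not. Stra8 is the filled point apart with MEKi at 24 h (2.19), and Stra8 and Meioc are filled at 72 h (3.18 and 2.56).

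The timing of the MEKi response was compared directly. The Meioc response was larger at 72 h than at 24 h (difference of log2 differences 2.18, SE 0.423, FDR 0.0181), whereas the responses of Stra8 (0.99, SE 0.239, FDR 0.508), Meiosin (1.38, SE 0.892, FDR 0.970) and Ythdc2 (−0.61) did not pass this test, which called 1.89% of all genes. The Meioc result depended on the handling of the counts. It was lost with no filter on low counts (FDR 0.0518), with the lowest index ratio taken out (1.67, FDR 0.244), without XY 24 h DMSO replicate 4 (FDR 0.0510) and without XY 72 h DMSO replicate 5 (1.77, FDR 0.0812), and it turned to −3.13 with the planned index correction. With the lowest ratio taken out the difference between times was 0.06 for Stra8 and 0.43 for Meiosin. Within MEKi, from 24 to 72 h, Meioc rose (log2 2.40, SE 0.247, FDR 5.032e-08) and so did Meiosin, from 10 to 147 counts over the group (log2 3.07, SE 0.574, FDR 5.427e-04), against 16.4% of all genes. The share of blood markers was lower at 72 h (0.00297% against 0.0309%, with no overlap), 6 of the 7 tested were called lower, and their part was not tested. Stra8 was 0.91 higher on the log2 scale (SE 0.137), with no overlap between the libraries, and missed the threshold (FDR 0.0577). It passed with edgeR (FDR 0.0154), with median-of-ratios scaling (FDR 0.0314), with the 2 groups alone (FDR 0.0103) and without XY 24 h MEKi replicate 6 or XY 72 h MEKi replicate 3 or 4 (FDRs 0.0138 to 0.0270).

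No member was called with FGFRi at either time. After 24 h of FGFRi Stra8 was at 122, 103, 111 and 100 CPM against 94.4, 120, 106 and 106 CPM in DMSO, and the libraries overlapped (log2 0.05, 95% interval −0.35 to 0.45). Meioc was at 7.81, 2.44, 9.18 and 7.91 CPM (log2 −0.63, 95% interval −1.50 to 0.24), Ythdc2 at 12.48 ± 4.40 CPM, and Meiosin gave 3 counts over the group against 11 (ratio 0.474, 95% counting interval 0.0849 to 1.79). Of all genes 0.262% were called, and this comparison crosses the pools. With the lowest ratio taken out of the DMSO libraries the Stra8 difference became 0.98 and was not called, and with the planned correction, which leaves DMSO at 0, it was called (FDR 4e-05), as was Meioc (log2 4.69, FDR 0.00564). After 72 h of FGFRi Stra8 was at 102, 186, 98.2 and 136 CPM (log2 0.35, 95% interval −0.01 to 0.72) and Meioc at 21.7, 22.0, 24.7 and 11.6 CPM (log2 0.79, 95% interval 0.21 to 1.37). Both overlapped the DMSO libraries. Meiosin was at 3.40 ± 0.526 CPM and Ythdc2 at 19.3 ± 3.31 CPM, and 0.00656% of all genes, a single gene, were called. At both times limma, edgeR and DESeq2 called 0 members. None had an unadjusted p under 0.05 in the limma test against a fold of 1.5, though the 95% interval of Meioc at 72 h lay wholly above no difference. The difference between the FGFRi responses at 72 and 24 h likewise called 0 members with each tool (0 at an unadjusted p under 0.05), against 0.0328% of all genes.

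The inhibitors were compared with each other at 72 h, where their libraries shared a pool and a dose. Stra8 was 7.07-fold higher in MEKi than in FGFRi (log2 2.82, SE 0.149, FDR 1.451e-17) and Meioc 3.42-fold higher (log2 1.78, SE 0.174, FDR 3.106e-07), with no overlap for either. Meiosin did not overlap (log2 1.34, SE 0.34) and missed the threshold (FDR 0.0996), though edgeR called it (FDR 0.0252), and Ythdc2 differed by −0.08, so that 2 members were called where 12.7% of all genes were. From 24 to 72 h within FGFRi, Meioc (log2 1.64, FDR 0.0160) and Meiosin were called higher, against 33.5% of all genes. Meiosin rested on 51 counts against 3 (ratio 6.92, 95% counting interval 2.24 to 34.7; FDR 0.0179). Both calls were lost without XY 24 h FGFRi replicate 3 (FDRs 0.124 and 0.0624), and that of Meiosin also without replicate 5 (FDR 0.0831).

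After 72 h of MEKi Stra8 overlapped the XX libraries, with 2 of the 4 MEKi libraries above all of them, while Meioc, Meiosin and Ythdc2 were below every XX library. At 24 h Stra8 in MEKi was at 52.5% of XX DMSO (95% interval 42.7 to 64.4), below every XX library, and the difference missed the threshold against a fold of 1.5 (log2 −0.93, SE 0.148, FDR 0.106). It passed with edgeR (FDR 0.0127) and without XY 24 h MEKi replicate 6 (FDR 0.0492). Meiosin was at 9.94% (FDR 4.021e-04), Meioc at 8.04% (FDR 3.608e-14) and Ythdc2 at 50.4% of XX (FDR 0.207), so 2 members were called against 8.62% of all genes. Blood markers were at 0.0309% in MEKi and 0.00372% in XX at 24 h (exact permutation p = 0.02857, adjusted p = 0.149), and 6 of the 7 tested were called higher by limma. At 72 h they were at 0.00297% and 0.00238% (exact permutation p = 0.486), with 0 of the 7 called by limma, edgeR or DESeq2 and 0 at an unadjusted p under 0.05, and their part at either time was not tested. At 72 h Stra8 was at 129% of XX (95% interval 107 to 156) and the libraries overlapped, with 770 to 1163 CPM in MEKi and 553 to 851 CPM in XX (FDR 1). Meioc was then at 19.0% of XX (95% interval 16.0 to 22.7, FDR 7.499e-18), Meiosin at 27.6% (19.9 to 38.2, FDR 7.889e-06) and Ythdc2 at 29.0% (23.2 to 36.1, FDR 6.513e-09). These 3 members were called, against 30% of all genes, and none of them overlapped the XX libraries.

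**Figure D3:**
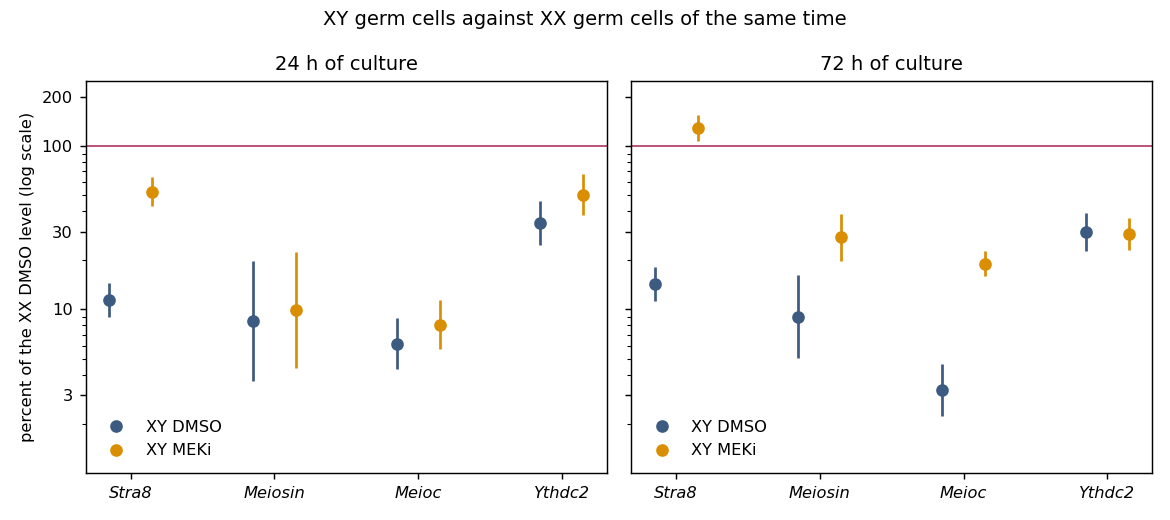
Level of each member in XY germ cells in DMSO and MEKi as a percent of XX DMSO germ cells at the same time (log scale), with 95% intervals from the limma fit. At 72 h of MEKi Stra8 is at 129% of XX, while Meioc, Meiosin and Ythdc2 are at 19.0, 27.6 and 29.0%. The XY 24 h DMSO points are from counts without a correction for shared indices.

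Among genes placed upstream of Stra8, BMP-induced factors were lower in XY germ cells at 0 and 24 h and Nanos2 fell with MEKi. Of 29 listed genes 24 were tested, and Zglp1 was not analysed here. At 0 h, 3 were lower in XY and none higher, namely Gata2 (log2 −4.21, FDR 1.468e-15), Msx1 (−3.54, FDR 1.431e-07) and Msx2 (−3.13, FDR 5.588e-06), transcription factors induced by BMP, against 3% of all genes called. At 24 h these were lower again (−5.23, −4.98 and −4.80), and 3 genes were higher in XY, among them Nanos2 (4.40), an RNA-binding protein that acts against meiosis in the male. Those 6 calls of 24 stand against 9.99% of all genes. At 72 h, when 8 were higher and 5 lower in XY (41% of all genes called), Msx1 (−4.37) and Gata2 (−2.40) were still lower, whereas Msx2 was at 2.38 CPM in XY DMSO and 1.80 CPM in XX and was not called (0.17, FDR 1). MEKi at 24 h called 1 gene (0.164% of all genes), Nanos2, which fell from 21.8 CPM (11.9 to 37.5) to 1.94 CPM (1.06 to 2.74), with no overlap (log2 −3.21, SE 0.501, FDR 0.001518). At 72 h of MEKi Nanos2 was still lower (log2 −1.25, FDR 0.0377), while Dmrt1 (1.54, FDR 4.908e-08), a regulator of germ cell fate, and Ezh2 (1.09), a Polycomb methyltransferase, were higher. These 3 calls of 24 are close to the share of all genes called, 9.12%. Msx1, at 42.5 CPM in XX 24 h, was at or below 3.0 CPM in the XY groups. Dazl, an RNA-binding protein that licenses germ cells for meiosis, was at 832 to 1710 CPM in all groups.

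The meiotic prophase genes, a list of 40 of which 39 were tested, work after meiotic entry. In XX germ cells 19 were higher at 24 h than at 0 h and none lower (48.7%, against 3.23% of all genes, with a median log2 of 1.19 against 0.0455), and 32 were higher at 72 h than at 24 h (median 1.73, against −0.102, where 22.2% of all genes were called), with 1 lower, the cohesin Rec8 (−2.34). In XY germ cells in DMSO 6 were higher at 24 h than at 0 h and none lower (15.4%, against 2.94% of all genes). From 24 to 72 h 12 were higher and 2 lower (35.9%, against 27.3%), and from 0 to 72 h 19 were higher and 1 lower (51.3%, against 35.5%). In XY germ cells 27 were lower than in XX at 24 h and 35 at 72 h, and none higher, against 9.99% and 41% of all genes called. MEKi called 0 of them at 24 h (limma, edgeR and DESeq2, with 1 at an unadjusted p under 0.05), where 0.164% of all genes were called. Rec8 was at 73.3 CPM (63.0 to 95.8) in MEKi and 36.4 CPM (31.6 to 41.9) in DMSO, without overlap (log2 0.95, SE 0.177, FDR 1). At 72 h MEKi called 11 of the 39 higher and none lower (28.2%, against 9.12% of all genes, with a median of 0.694 against 0.00574), led by Terb1 (log2 2.74, FDR 7.025e-05), which attaches telomeres, Prdm9 (2.14, FDR 3.234e-06), which marks hotspots of recombination, and Dmc1 (2.02, FDR 8.96e-04), a strand exchange protein. Rec8 was called too (1.97, FDR 3.469e-09), at 142 CPM against 36.8 CPM in DMSO and 70.8 CPM in XX. Sycp3 was at 695 CPM in MEKi, 506 CPM in DMSO and 1890 CPM in XX (MEKi against DMSO log2 0.38, FDR 1), and Spo11, which makes the double-strand breaks, at 5.67, 5.44 and 30.2 CPM. Against XX at 72 h, 35 of the 39 were lower in MEKi and 1, Rec8, was higher (log2 1.16), against 30% of all genes called. FGFRi called 0 of them at either time with each of the 3 tools, and 0 had an unadjusted p under 0.05. Of all genes it called 0.262% at 24 h and 0.00656% at 72 h.

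MEIOC and YTHDC2 are known to clear mitotic transcripts. Of 20 mitotic cell cycle genes, 11 fell and 3 rose between 24 and 72 h in XX DMSO germ cells, and 13 fell and none rose in XY DMSO, against 22.2% and 27.3% of all genes called. Ccna2 was at 241, 123 and 45.4 CPM in XX at 0, 24 and 72 h and at 236, 145 and 49.8 CPM in XY. With MEKi for 72 h, 9 of the 20 were higher than in DMSO and none lower (median log2 0.858, against 0.00574 for all genes, of which 9.12% were called). Ccne1 (2.83, FDR 3.506e-05), Mki67 (2.27, FDR 4.568e-11) and Plk1 (2.01, FDR 1.104e-05) led them. Ccna2 was at 105 CPM (1.09, FDR 0.0188), in the same libraries in which Meioc was 5.91-fold higher. A link between the Ccna2 and Meioc levels was not tested. MEKi at 24 h called 0 of the 20 with limma, edgeR and DESeq2, against 0.164% of all genes, and 0 had an unadjusted p under 0.05. Of 18 genes of the YTHDC2 partners and the m6A machinery, MEKi at 72 h raised 1, the writer subunit Rbm15b (1.33, FDR 0.00844), a share of 5.56% against 9.12% of all genes. Rbm46, an RNA-binding partner of MEIOC and YTHDC2, was at 249 CPM in 72 h MEKi, 136 CPM in 72 h DMSO and 248 CPM in XX 72 h. It was called against FGFRi (log2 0.83, FDR 0.0352) and against DMSO it missed the threshold (0.83, FDR 0.0644).

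**Figure D4:**
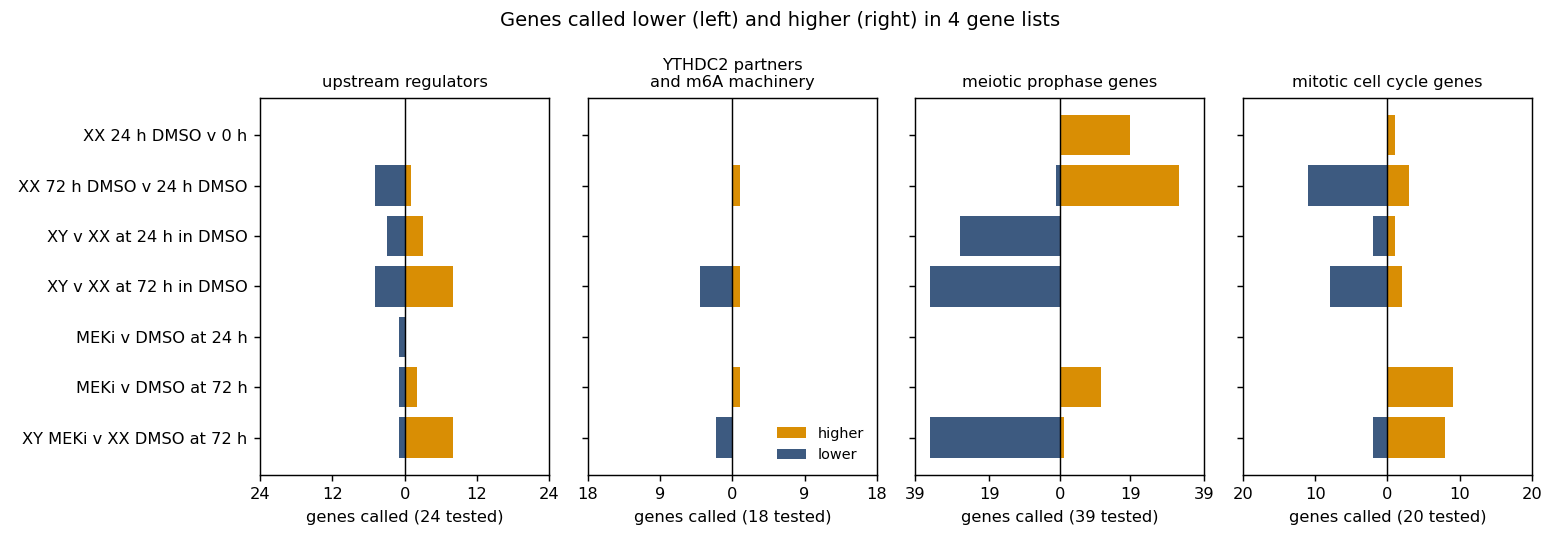
Number of genes called higher (to the right) and lower (to the left) in 7 comparisons between sexes, times and MEKi and DMSO for the meiotic prophase, mitotic cell cycle, upstream and m6A lists. MEKi at 72 h gives 11 meiotic prophase genes and 9 mitotic genes higher and none lower, and MEKi at 24 h gives 1 gene of the 4 lists.

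Over the 10 group means, on the log2 CPM scale, Meiosin and Meioc were most alike (Pearson r 0.964), and Stra8 followed them less closely (0.712 with Meiosin, 0.756 with Meioc, 0.369 with Ythdc2). Ythdc2 correlated with Meioc at 0.844 and with Meiosin at 0.835. These values describe 10 means that share libraries and treatments. Among all genes tested, the 5 most like Stra8 were Zfp788 (0.939), Ppp6r2 (0.918), Greb1l (0.916), Stau2 (0.913) and Banp (0.909). Strip2 (0.991) and Pde3b (0.987) were most like Meiosin, Fgf11 (0.988) and Dusp16 (0.986) most like Meioc, and Fmr1 (0.980) and Rev3l (0.974) most like Ythdc2. For Meiosin, Meioc and Ythdc2 each of their 5 nearest genes had its highest mean in XX 72 h, whereas 3 of the 5 nearest to Stra8 had theirs in XX 24 h.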

How the data were processed

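Germ cell RNA was measured in 40 libraries, which were submitted as 2 pools of 20. The authors deposited whole-number counts per gene. In their processing, scPipe separated the libraries, Rsubread aligned the reads to GRCm39, exons were assigned, and reads sharing a molecular identifier were collapsed. The counts carry no normalisation. Depth, 1178953 to 5199153 counts per library, limits the precision of low genes, and counting intervals cover counting error only (0.95 level). Ensembl identifiers were matched to GENCODE M39, and 2031 of 42422 genes, with 1.05% of the counts, did not match.

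Genes were filtered with filterByExpr (minimum count 10, minimum total 15), scaled by TMM, and fitted with voomWithQualityWeights and treat (fold 1.5) in limma 3.58.1 and edgeR 4.0.16, with 1 mean per group over all 40 libraries, after the methods of the study but without its somatic libraries. Benjamini-Hochberg adjustment ran over all 15252 genes tested and calls had an FDR under 0.05. Unadjusted p-values are from the same limma test against a fold of 1.5, so they do not test for any difference at all. Scripts were tested on simulated data. CPM were taken over TMM library sizes. The members and gene lists were chosen with earlier results of these data known. The text names the members, a fixed set of genes from each list, up to 3 called list genes with the largest difference per comparison, and the 5 genes most like each member. List counts are descriptions, with no set test. Marker shares were compared by exact permutation over the 70 regroupings. Alternatives were median-of-ratios scaling, no filter, edgeR, DESeq2 1.42.0, no quality weights, no fold threshold, the groups compared alone, a replicate block, corrections for shared indices and leaving out each library. Promoters came from RefSeq (GRCm38.p6).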

Additional observations from a re-analysis of the deposited data

Results flagged for a closer look

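A library stood apart from the other 3 of its group in 4 of the 40 sets of values, 1 for each member and group, where chance gives about 1 in 20. Stra8 in XY 72 h DMSO had replicate 5 at 59.3 CPM and the others at 114 to 117 CPM (gap over range 0.936). Meiosin in XY 24 h DMSO had replicate 4 at 2.41 CPM, on 7 counts, against 0.519 to 0.541 CPM (0.988). Ythdc2 in the same XY 24 h DMSO replicate 4 was at 22.4 CPM against 9.33 to 10.8 CPM (0.886), and Ythdc2 in XY 72 h MEKi replicate 4 was at 16.9 CPM against 20.8 to 21.6 CPM (0.85). In the main fit the response of Meioc to MEKi differed between the times, by 2.18 on the log2 scale (72 h less 24 h). This result depended on the handling of the counts, as given above.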

How the results depend on the processing

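The Stra8 and Meioc calls for MEKi against DMSO at 72 h, and the 4 calls between XY and XX at 24 and at 72 h, held in each of their 18 alternatives. Of 1759 alternative log2 differences 1675 kept their side of the threshold without a reversal. The sign changed in 70, of which 62 were called neither as reported nor under the alternative (30 of them on leaving out 1 library and 7 with the lowest-ratio correction). The other 8 were called in at least 1 of the fits, all with the planned correction for shared indices. These were Stra8 and Meioc in XY 24 h DMSO against 0 h (−0.83 and −3.95), Stra8 in XY 72 h against 24 h DMSO (8.60), Meioc in FGFRi at 24 h (4.69), the 72 h less 24 h difference of MEKi for Stra8 (−7.69) and Meioc (−3.13) and of FGFRi for Stra8 (−8.39), and that of XY minus XX for Meioc (4.45). By its construction it sets Stra8 and Meioc to 0 in XY 24 h DMSO.

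The number of members called changed by over 1.5 times as follows, and the cause was not tested where the setting does not show it. With no filter it was 1 for XY against XX at 0 h and 0 for XY 24 h against 0 h, MEKi at 24 h and the MEKi difference between times. With the planned index correction it was 1 for XY against XX at 0 h, 3 for XY 72 h against 24 h, 2 for MEKi and for FGFRi at 24 h, 1 for the FGFRi difference between times and 2 for both differences of the sex contrast. With the lowest-ratio correction, chosen after seeing the data, it was 1 for XY 72 h against 24 h and 0 for the MEKi difference. With no fold to exceed it was 3 for XY 24 h against 0 h, 4 for XX 72 h against 24 h and for MEKi against XX at 24 h, 2 for XY 72 h against 24 h, XY 24 h MEKi against 0 h, the MEKi difference and the first sex difference, and 1 for the second. XY 72 h against 0 h gave 1 without quality weights and 1 with the 2 groups alone, FGFRi 72 h against 24 h gave 1 with the 2 groups alone, and XX 72 h against 24 h gave 1 with DESeq2. Leaving out 1 library gave 1 to 3 members for XY 72 h against 0 h, 0 to 2 for FGFRi 72 h against 24 h and 0 to 1 for the MEKi difference.

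With the replicate block, 0 members were called for XX 72 h against 24 h and 0 for the MEKi difference. The block also ended the Meiosin calls of XX 24 h against 0 h (FDR 0.311) and of MEKi against XX at 72 h (FDR 0.0877), leaving 2 members in each, and it added Stra8 for MEKi 72 h against 24 h (FDR 0.0212). Smaller changes, by 1 member, were among others 2 for XX 24 h against 0 h with no filter, 3 for MEKi against DMSO and against FGFRi at 72 h with edgeR, and, with no fold to exceed, 3 for XY against XX at 0 h and 4 for XX 24 h against 0 h. Deviations of the 106 same-numbered pairs of libraries had a median correlation of −0.0202 (−0.423 to 0.389), against −0.000111 (−0.549 to 0.519) for other pairs. The pairs were taken across all groups, and whether replicate numbers pair the libraries within a sex or treatment was not tested. Median-of-ratios scaling shifted the median of all genes by up to 0.116 (XY 72 h against 24 h). Of the group means, 4 moved by more than 1 SD, namely Stra8 in XY 24 h DMSO (54.7 CPM), Meioc in XX 0 h (25.04) and in XY 24 h DMSO (7.57) with the lowest-ratio correction, and Meioc in XY 72 h MEKi over plain totals (76.0). Depth limits Meiosin, which had 11 counts or fewer over each of 4 groups.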
